A study of Homo sapiens with 8 samples.

Results

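Binding sites of p63 were examined at 7 loci named for AP-1 and Hippo pathway genes, FOSL1, FOSL2, FOS, JUN, JUNB, TEAD1 and YAP1. p63, encoded by TP63, is the transcription factor that maintains basal keratinocytes and squamous tumours. It was profiled by chromatin immunoprecipitation and sequencing (ChIP-seq) in a pair of established human cell lines from squamous cell carcinoma, CAL27 and SCC13, both labelled wild type and untreated. The 8 samples form 4 groups of 2, which are p63 immunoprecipitations and samples titled none in each line, and the title of the series names p63 together with the cofactor FOXK1. CAL27 was grown in DMEM F:12 with serum, whereas SCC13 was grown in a serum-free keratinocyte medium with bovine pituitary extract, EGF and added calcium. Differences of line and of medium therefore cannot be told apart. A region was assigned to a locus when its midpoint fell in the locus window on hg19. With the lists merged, 33 of 15267 different regions met that rule. Of these, 32 were among the 13829 CAL27 regions and 12 among the 5886 SCC13 regions.

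AP-1 is a family of dimers in which a FOS-type protein pairs with a JUN-type protein through a leucine zipper and contacts DNA through the adjoining basic region. In epidermis these factors act in proliferation, in the response to growth factors and wounding, and in differentiation. YAP1 is the co-activator that the Hippo kinase cascade keeps out of the nucleus, and TEAD1 is one of the DNA-binding proteins that carry it to target genes. AP-1 and TEAD motifs are often found together in the enhancers of epithelial cells.

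The promoter table of RefSeq held 5 of the 7 genes (FOSL2, FOS, JUN, JUNB and YAP1), with 250 bases before and 50 after each start. Among them the AP-1 motif TGANTCA was found in FOSL2 and the TEAD motif GGAATG in YAP1, each in 1 of the 5 genes and searched on both strands. Only these exact patterns were counted. Longer or variant forms of either site were not, so a promoter without a match, such as that of JUN, need not lack a site. Over all 35116 promoters of the table, 7.71% held the AP-1 motif and 14% the TEAD motif. These stretches are shown because each carries the motif of the member's own pathway. Capitals mark the match. They come from GRCh38.p14, plus strand, at chr2:28392608-28392887 for FOSL2 and chr11:102110197-102110446 for YAP1. Those positions belong to another build than the p63 regions and were not set against them, so whether a p63 region covers either promoter was not analysed here. The sequence of FOSL2 runs into the first transcribed bases, where its match lies.
FOSL2: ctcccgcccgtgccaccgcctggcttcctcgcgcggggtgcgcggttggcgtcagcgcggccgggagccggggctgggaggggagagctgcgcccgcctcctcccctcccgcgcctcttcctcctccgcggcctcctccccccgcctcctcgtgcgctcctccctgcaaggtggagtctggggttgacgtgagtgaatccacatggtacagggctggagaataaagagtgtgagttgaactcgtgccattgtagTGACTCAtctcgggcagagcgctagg
YAP1: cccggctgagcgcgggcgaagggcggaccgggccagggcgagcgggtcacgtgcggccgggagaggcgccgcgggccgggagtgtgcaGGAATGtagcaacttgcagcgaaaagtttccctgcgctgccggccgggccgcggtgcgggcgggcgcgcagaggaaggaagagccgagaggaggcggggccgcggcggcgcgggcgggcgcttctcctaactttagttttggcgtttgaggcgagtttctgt

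A loose form of the p63 response element (CNNG, any 6 bases, CNNG) was found in all 5 promoters and in 74.0% of the table. A second pattern (CATG, any 2 bases, CATG) was found in 0 of the 5 and in 0.384% of the table. Its spacer is 2 bases rather than 6, so it is not a stricter version of the loose form. Stricter forms with 6 bases between the cores were not counted, so their presence or absence in these promoters is not known. Motifs may overlap one another. A match describes the promoter window only. The p63 regions themselves lie on hg19, whose sequence was not used here. Other AP-1 and Hippo genes, and distances to transcription starts, were not analysed here for the same reason.

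Each of the 7 loci held at least 1 p63 region listed in both lines. Across the windows, which total 1.76 Mb, CAL27 had 32 regions, or 18.2 per Mb, and SCC13 had 12, or 6.82 per Mb. Over the whole lists, between the first and last listed position of each chromosome, CAL27 had 4.72 regions per Mb and SCC13 had 2.01. The CAL27 to SCC13 ratio of counts was 2.67 at the loci and 2.35 over the lists. Windows of the same length, laid end to end along the chromosomes, held a shared region in 16.8% of cases at 140 kb, the length used for FOSL1, and in 41.3% at 470 kb, the length used for TEAD1. Such windows take no account of gene content or of sequence that cannot be mapped, and among those that held any region the shares given per locus here are larger, for instance 1.66% in place of 0.912% for the CAL27 count at FOSL2. Each line has 1 list, which the labels name for both replicates, without scores or depths, so no spread between replicates could be computed and no difference was tested.

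Of the 32 CAL27 regions at the loci, 11 were also in the SCC13 list, or 34.4% (95% exact Clopper-Pearson interval 18.6 to 53.2), beside 32.2% of the whole CAL27 list. Of the 12 SCC13 regions, the same 11 were in the CAL27 list, or 91.7% (61.5 to 99.8), beside 75.6% of the whole SCC13 list. Among members at least as wide as their list median the CAL27 share was 52.9%. The same share over the wider regions of the whole CAL27 list was not computed, so 52.9% has no list value beside it. Shared regions were wider over the series as well, with a median of 934 bp against 723 bp for CAL27-only regions. The intervals of 34.4% and 91.7% each contain the share of their whole list, and they cover counting error only. They treat regions as independent, although some are neighbours in 1 window and the same 11 regions enter both shares. They are not a test of the members against the lists. The 11 shared regions had the same start and end in both lists, as did all 4448 shared regions of the series. The remaining members were 21 regions listed in CAL27 only, present at each locus, and 1 listed in SCC13 only, at JUN. The SCC13 regions at the other 6 loci were therefore a subset of the CAL27 regions.

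**Figure D1:**
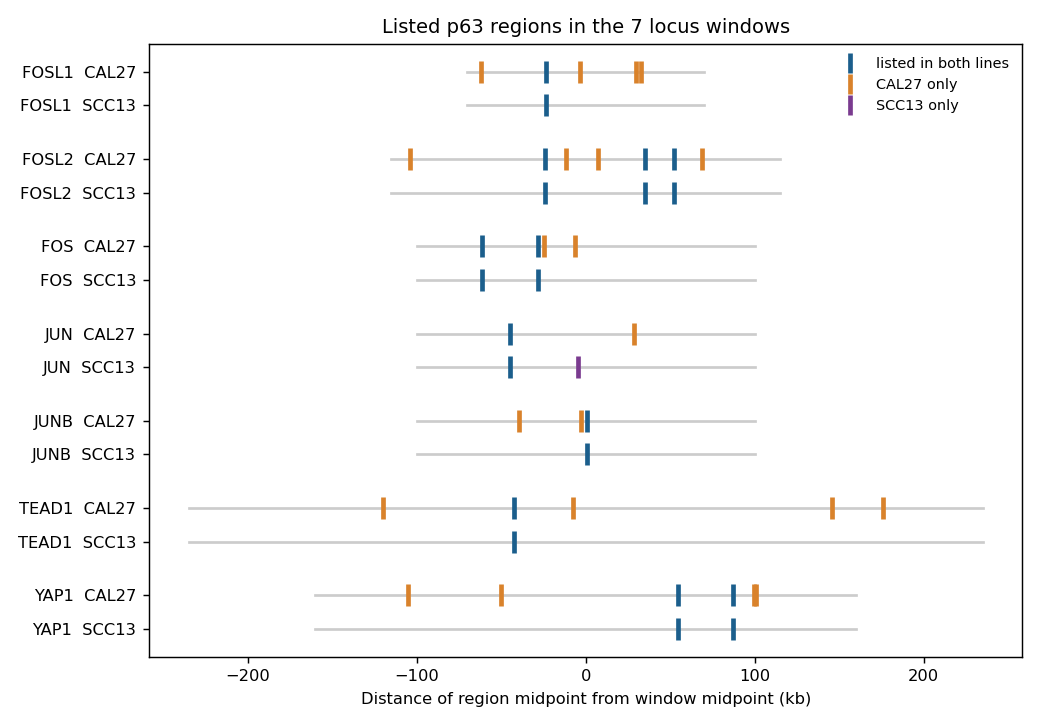
Map of the 33 p63 regions in the 7 locus windows, with CAL27 above SCC13 at each locus. The horizontal axis is the distance in kb from the window midpoint, grey lines show the window, and each tick is the midpoint of 1 region coloured by whether it is listed in both lines or in 1. Blue ticks repeat at the same place in both rows, and the single SCC13-only tick is at JUN.

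FOSL2 (chromosome 2, 28.51 to 28.74 Mb) encodes a FOS-type partner that regulates epidermal differentiation in mice, and its window had the highest count in both lines, 7 regions in CAL27 and 3 in SCC13. As many or more CAL27 regions lay in 0.912% of the 12715 windows of 230 kb, and as many or more SCC13 regions in 3.00%. All 3 SCC13 regions were shared. Of these, chr2:28599912-28601876 and chr2:28659196-28661176 were 1965 and 1981 bp wide, wider than 98.7% of the CAL27 list each and than 98.0% and 98.1% of the SCC13 list, and they were the widest of all 33. They lay 24.1 kb below and 35.2 kb above the window midpoint, and the third, chr2:28676666-28677507, was 842 bp wide and 16.9 kb beyond the second. The 4 CAL27-only regions were 343 to 1061 bp wide. Those at chr2:28612892-28613952 and chr2:28631670-28632392 fell between the wide shared pair, that at chr2:28693519-28694368 lay 16.9 kb above the third shared region, and that at chr2:28521244-28521586, the narrowest at the locus, stood 79.5 kb from any shared region.

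FOSL1 (chromosome 11, 65.62 to 65.76 Mb) encodes a FOS-type partner that is abundant in many invasive carcinomas. Its window was the shortest, at 140 kb, and had the highest CAL27 density, with 5 regions or 35.7 per Mb, against 1 region or 7.14 per Mb in SCC13. As many or more CAL27 regions lay in 1.23% of the 20902 windows of that length, and 1 or more SCC13 regions in 21.6%. The shared region, chr11:65666264-65667059, was 796 bp wide. In CAL27 it had neighbours at chr11:65627699-65628624 and chr11:65685945-65686912, of 926 and 968 bp, both wider than the shared one. The other CAL27-only regions, chr11:65719681-65720214 and chr11:65722135-65722900, formed a pair 2.57 kb apart. Of the 154 windows of 140 kb with exactly 5 CAL27 regions, 23 had no SCC13 region, 47 had 1 as at FOSL1, and 84 had more.

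FOS (chromosome 14, 75.65 to 75.85 Mb), the immediate early gene that gives the FOS-type proteins their name, had 4 regions in CAL27 and 2 in SCC13. Windows of 200 kb held as many or more in 6.01% of 14622 cases for CAL27 and in 8.06% for SCC13. The shared regions were chr14:75688314-75689330 and chr14:75721067-75722187, 1017 and 1121 bp wide and 32.8 kb apart. The CAL27-only regions, chr14:75725023-75726107 and chr14:75743401-75744309, were 1085 and 909 bp wide, and the first of them was 3.94 kb from a shared region. All 4 lay on the lower side of the window midpoint, within 61.2 kb of it. In the gene order of GRCh38.p14 the lower neighbour of FOS is TMED10 and the higher one is JDP2, which encodes a bZIP protein that dimerises with JUN-type proteins.

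The JUN-type loci had the fewest CAL27 regions of the 7, 2 at JUN and 3 at JUNB. JUN (chromosome 1, 59.15 to 59.35 Mb), the founding JUN-type partner, had 2 regions in each line, the only locus of the 7 where the counts were equal. As many or more lay in 23.9% of windows of 200 kb for CAL27 and in 8.06% for SCC13. One region was shared, chr1:59204500-59205619, 1120 bp wide. The second CAL27 region was chr1:59278271-59278996, of 726 bp, and the second SCC13 region was chr1:59245288-59245783, of 496 bp, so each line had a region there that was absent from the list of the other. The SCC13-only region was 4.46 kb from the window midpoint, and 9.43% of the SCC13 list was narrower. Among 1776 windows with exactly 2 CAL27 regions, 16.0% had 2 or more SCC13 regions.

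JUNB (chromosome 19, 12.80 to 13 Mb), a JUN-type partner with a role in epidermal homeostasis in mice, had 3 regions in CAL27 and 1 in SCC13. Windows of 200 kb held as many or more in 11.8% of cases for CAL27 and in 28.7% for SCC13. The shared region, chr19:12899792-12901399, was 1608 bp wide, wider than 95.8% of the CAL27 list and 94.0% of the SCC13 list, and its midpoint was 0.595 kb from that of the window. It was the third widest of the 33 members. In CAL27 it was accompanied by chr19:12896758-12897643, of 886 bp, at 3.40 kb, while in SCC13 its nearest listed region was 974 kb away. The third CAL27 region, chr19:12860462-12860717, was the narrowest member, at 256 bp, with 0.0868% of the CAL27 list narrower. HOOK2 and PRDX2 are the neighbours of JUNB in the GRCh38.p14 gene order.

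**Figure D2:**
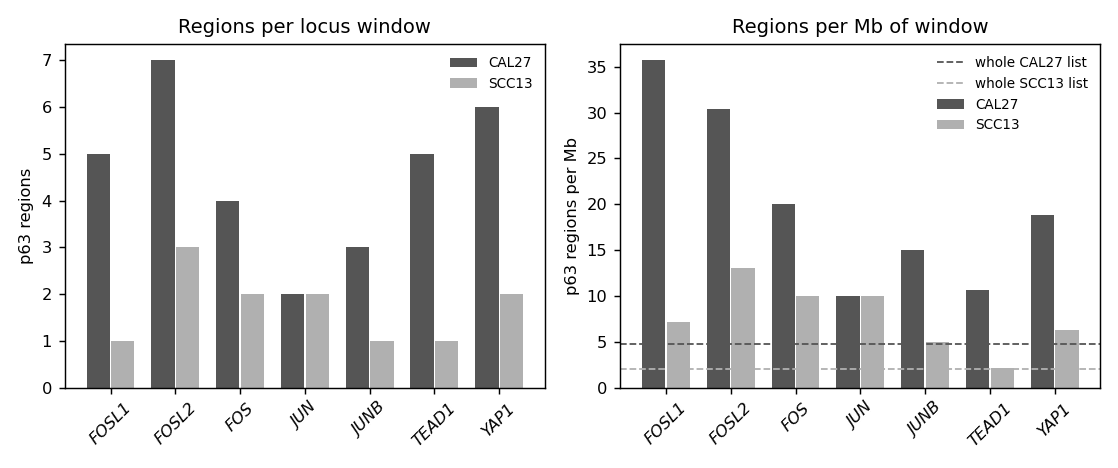
Number of p63 regions per locus window (left) and per Mb of window (right), CAL27 in dark and SCC13 in light bars, 1 list per line and no error. Dashed lines give the density of the whole lists, 4.72 per Mb for CAL27 and 2.01 per Mb for SCC13, and CAL27 bars exceed their line at each of the 7 loci, with SCC13 nearest to its own line at TEAD1, at 2.13 per Mb.

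TEAD1 and YAP1, the DNA-binding factor and its co-activator, had 11 CAL27 regions and 3 SCC13 regions between them, or 13.9 per Mb in CAL27 and 3.8 per Mb in SCC13. The AP-1 loci had 21 in CAL27 and 9 in SCC13, or 21.6 and 9.28 per Mb. In SCC13 all 3 regions at TEAD1 and YAP1 were shared, as were 8 of the 9 at the AP-1 loci. With counts this small the gene groups were not compared by a test.

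TEAD1 (chromosome 11, 12.60 to 13.07 Mb) had the longest window and the lowest SCC13 density. Its 5 CAL27 regions gave 10.6 per Mb and its 1 SCC13 region 2.13 per Mb, near the density of the SCC13 list on chromosome 11, 2.16 per Mb. Windows of 470 kb held 5 or more CAL27 regions in 16.5% of 6212 cases and 1 or more SCC13 regions in 51.3%. The shared region, chr11:12792053-12793262, was 1210 bp wide and the widest at the locus. The CAL27-only regions were chr11:12714994-12715985, chr11:12827455-12828039, chr11:12980562-12981012 and chr11:13010353-13011089, of 992, 585, 451 and 737 bp. Gaps between CAL27 neighbours ranged from 29.9 to 153 kb, so no group of close regions formed here. A window widened by 50 kb at both ends took in a second SCC13 region, also shared. Of 344 windows with exactly 5 CAL27 regions, 48 had no SCC13 region, 105 had 1 and 191 had more. In windows matched to FOSL2 and FOS on length and CAL27 count, 56.9% and 41.1% had as many SCC13 regions or more. For JUNB and YAP1 the shares were 71.5% and 70.7%.

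YAP1 (chromosome 11, 101.88 to 102.20 Mb) had 6 regions in CAL27 and 2 in SCC13. As many or more lay in 4.51% of the 9130 windows of 320 kb for CAL27 and in 15.4% for SCC13. The shared regions, chr11:102094352-102095020 and chr11:102126842-102127527, were 669 and 686 bp wide and 32.5 kb apart. Just above them, CAL27 alone had chr11:102139060-102139837 and chr11:102140462-102141123, of 778 and 662 bp, with midpoints 1.34 kb apart, the closest pair of members. The 4 regions together lay on the upper side of the window midpoint, and the other CAL27-only regions lay below it, at chr11:101935060-101935576 and chr11:101989516-101990019, of 517 and 504 bp. None of the YAP1 regions was as wide as the median of the CAL27 list, 791 bp, or of the SCC13 list, 862 bp. In the gene order of GRCh38.p14 YAP1 lies between CFAP300 and BIRC3, and FOSL1 between CCDC85B and C11orf68, so a region in these windows need not act on the named gene.

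**Figure D3:**
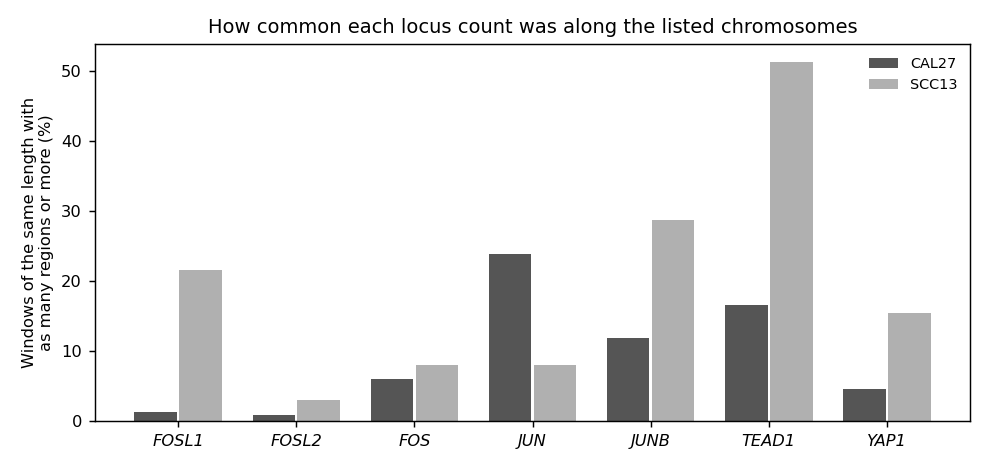
Percentage of windows of the same length, laid end to end along the listed chromosomes, that held as many p63 regions as the locus or more, CAL27 in dark and SCC13 in light bars. Low bars mean uncommon counts; FOSL2 has 0.912% for CAL27 and 3.00% for SCC13, while TEAD1 has 16.5% for CAL27 and 51.3% for SCC13.

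Shared members were among the wider regions at most loci. Their widths ran from 669 to 1981 bp with a median of 1120 bp, against 256 to 1085 bp and a median of 737 bp for the 21 CAL27-only members. The ranges overlapped: 6 of the 11 shared members were wider than every CAL27-only member, and 13 of the 21 CAL27-only members were wider than the narrowest shared one. The widest region was a shared one at 5 of 7 loci, the exceptions being FOSL1 and YAP1. Over the series the median was 934 bp for shared regions and 723 bp for CAL27-only regions, so the members followed the same order as the lists. At the AP-1 loci 15 of 21 CAL27 regions exceeded the list median width, and at TEAD1 and YAP1 2 of 11 did. All 4448 shared regions of the series had the same start and end in both lists. The lists therefore give no separate width of a shared region for each line. How these common ends arose is not stated, and whether the making of the lists affects the widths of shared regions was not tested. The width of a region does not measure how strongly p63 was bound.

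**Figure D4:**
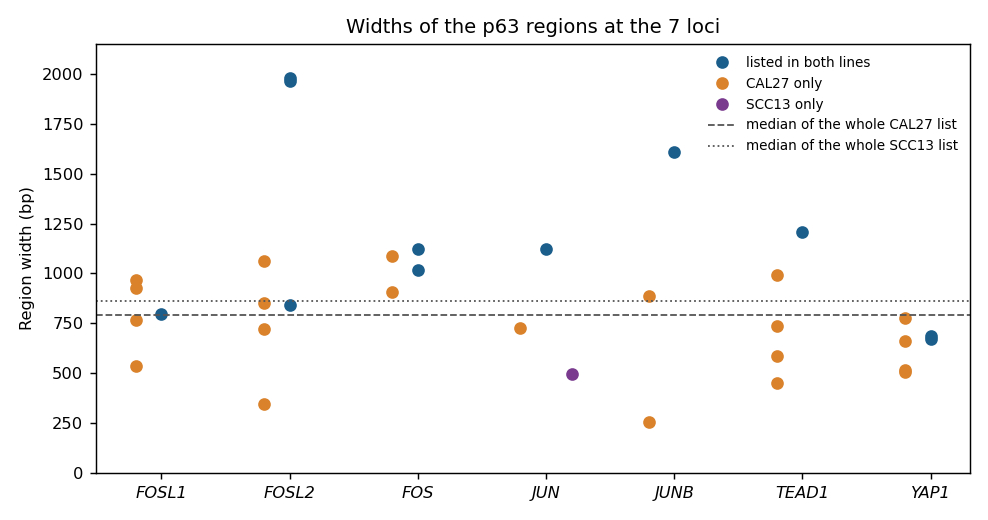
Width in bp of each of the 33 p63 regions by locus, coloured by the list or lists that hold it; each point is 1 region, and points that nearly coincide overlap, as at 1965 and 1981 bp for FOSL2. The lines mark the list medians of 791 bp for CAL27 and 862 bp for SCC13; the points of YAP1 all lie under both lines, and the widest points, at FOSL2 and JUNB, are shared regions.

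Members lay closer to their neighbours than listed regions usually did. The median distance to the nearest region of the same list was 18.4 kb for the CAL27 members, against 36.5 kb for the whole CAL27 list, and 26 of 32 members were below the list median. For SCC13 the medians were 36.6 kb for the members and 102 kb for the list, with 9 of 12 below it. Windows with many regions have short distances by construction, so this restates the density. With midpoints joined within 10 kb, CAL27 had 4 pairs, at FOSL1, FOS, JUNB and YAP1, which held 8 of the 32 members or 25.0%, beside 21.2% of the whole list. SCC13 had 0 such pairs among its 12 members, and 9.99% of its list was in such groups. The pairs at FOS and JUNB each joined a shared region to a CAL27-only region, and those at FOSL1 and YAP1 held CAL27-only regions alone.

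Position within the window was described as well, although the midpoint of a window is not a transcription start. Of the 33 members, 22 lay in the central 50% of their window, among them 9 of the 11 shared regions and 12 of the 21 CAL27-only regions. The same share was not computed for other windows, so these counts do not show that members or shared regions gather near the midpoint. At the window edges, the nearest listed CAL27 region outside was 2.52 kb (FOSL1) to 288 kb (YAP1) away, and the outermost CAL27 region inside was 8.16 to 115 kb from its edge. For SCC13 the nearest outside was 25.2 kb (TEAD1) to 1167 kb (FOS) away, and the outermost inside was 38.8 to 277 kb from its edge. The region closest to an edge, chr11:65616951-65618010 of 1060 bp beside FOSL1, was listed in CAL27 only.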

How the data were processed

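p63 ChIP-seq was analysed from 2 region lists, 1 for CAL27 and 1 for SCC13, each named in the labels for both p63 replicates. Tools in the submitters' processing notes are MACS2, Bowtie2 and SAMtools 1.8, with hg19 as build; their roles, the threshold for peaks, how replicates were merged and whether samples titled none served as background are not stated there. The deposited lists hold chromosome, start and end only, so depth and precision per sample are unknown. Positions are printed counted from 1. A region belonged to a locus by its midpoint, and regions were shared on an overlap of at least 1 bp. Windows of equal length were laid end to end between the first and last listed positions of each chromosome. All 7 loci were named, with every region at loci of 6 or fewer regions; at FOSL2, which has more, the CAL27-only regions were added after their values were seen. No test was run. Alternatives changed the windows, the match, the joining distance and the width. Members and lists were chosen with earlier results of these data known. Promoters and gene order came from RefSeq tables of GRCh38.p14. Functions were tested on simulated data. Python 3.11.15, numpy 2.4.6, scipy 1.17.1 and matplotlib 3.10.9 were used.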

Additional observations from a re-analysis of the deposited data

How the results depend on the processing

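No paired analysis was possible because each line has 1 list, named in the labels for both replicates, which also means that leaving out a replicate could not be tried. Distances to starts were not run without an hg19 annotation. The totals of 32 CAL27 and 12 SCC13 regions became 17 and 7 when only regions at least as wide as their list median were kept, and YAP1 then had 0 in both lines. The shared 34.4% of CAL27 members became 52.9% with those wider regions. The shared 91.7% of SCC13 members became 100% with them, and also without the JUN locus. Shares for the wider regions of the whole lists were not computed, so the values with wider regions cannot be set against the whole lists. Leaving out each locus in turn gave 32.0 to 37.0% for CAL27 and 88.9 to 100% for SCC13. Joined within 25 kb, the 4 CAL27 pairs became 7 groups and the 0 of SCC13 became 1. Windows offset by their midlength gave 1.09% for FOSL1 in CAL27 in place of 1.23%. Among only the windows with a region of either list, an alternative added after the values were seen, as many or more CAL27 regions were found in 2.96% (FOSL1), 1.66% (FOSL2), 11.7% (FOS), 46.7% (JUN), 23.0% (JUNB), 22.3% (TEAD1) and 7.06% (YAP1) of windows, and as many or more SCC13 regions in 51.7%, 5.47%, 15.7%, 15.7%, 56.2%, 69.5% and 24.1% of windows for the same loci in that order; leaving out empty windows raises each share by construction. Matching by reciprocal overlap or by midpoints could not lose a shared region, since shared regions have identical ends, so these alternatives say nothing about stability. Widening each window by 50 kb gave 39 CAL27 and 14 SCC13 regions. Without depths or scores, absence from a list does not show absence of binding.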
